A study of Homo sapiens with 21 samples.

Results

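RNA levels of 10 genes for SR proteins and transformer-2 factors were followed in 21 RNA-seq libraries of the established line HCC1806, which derives from a triple-negative breast tumour. The genes were SRSF1, SRSF4, SRSF5, SRSF6, SRSF8, SRSF9, SRSF10, SRSF11, TRA2A and TRA2B, taken by Ensembl identifier and symbol out of the 60668 genes in each of 2 count tables. They are genes for SR and SR-like splicing factors other than the overexpressed SRSF2, SRSF3 and SRSF7, a rule that uses no measured value. SRSF12 is not among them and is given apart. The libraries formed 7 groups of 3. In the first table, a line labelled for joint overexpression of SRSF2, SRSF3 and SRSF7 (3xSR) and a line labelled for overexpression of MYC (MYC-OE) stood beside control cells (3xCTL, genotype given as control). In the second, the lines SRSF2-OE, SRSF3-OE and SRSF7-OE, each labelled for a single one of these genes, stood beside cells with a single control plasmid (1xCtrl). All groups were adherent cultures of the same line, harvested near confluence. The labels do not give the vectors, the promoters that drive them, or whether a group is a clone or a pool. They also do not say that the 3 replicates were separate cultures, so the p-values measure the spread between these libraries, which may be technical. MYC-OE was set against 3xCTL, which may not carry the same vectors.

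SR proteins bind short exonic sequences through RNA recognition motifs and recruit the spliceosome through a domain rich in arginine and serine, the RS domain. Most act as splicing activators at exonic enhancers, and several also act in RNA export, stability and translation. Many of their genes carry conserved "poison" exons whose inclusion sends the transcript to nonsense-mediated decay, a route by which SR proteins limit their own RNA and that of each other. TRA2A and TRA2B are SR-like proteins that bind GAA-rich enhancers. Gene-level counts do not separate the productive from the poison-exon transcripts.

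In GENCODE release 29 (GRCh38), each of the 10 genes has at least 1 transcript annotated for nonsense-mediated decay, SRSF1 having the most with 3. SRSF5 and TRA2B each have 8 transcripts annotated with a retained intron. Some of the sequence just upstream of 3 of the genes is shown, and these genes were picked by their results. SRSF6 and TRA2B were both called higher in 3xSR and SRSF2-OE, and SRSF1 was among the genes lower in MYC-OE. SRSF6 was also called higher in MYC-OE, where TRA2B was not, and TRA2B in SRSF3-OE, where SRSF6 was not. A link of sequence to level was not tested. The bases are from RefSeq (GRCh38.p14), written 5′ to 3′ on the strand of the gene, and capitals mark the GC box GGGCGG, searched on both strands. SRSF6 lies at chr20:43457928-43464247 (plus strand), SRSF1 at chr17:58003360-58007346 (minus strand) and TRA2B at chr3:185915906-185938136 (minus strand).
SRSF6, chr20:43457646-43457895, plus strand: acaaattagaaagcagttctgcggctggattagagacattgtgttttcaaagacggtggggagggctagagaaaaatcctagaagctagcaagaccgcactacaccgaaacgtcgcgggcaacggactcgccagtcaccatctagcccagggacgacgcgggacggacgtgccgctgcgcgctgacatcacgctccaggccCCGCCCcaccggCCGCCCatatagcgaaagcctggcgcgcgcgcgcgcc
TRA2B, chr3:185938137-185938264, minus strand: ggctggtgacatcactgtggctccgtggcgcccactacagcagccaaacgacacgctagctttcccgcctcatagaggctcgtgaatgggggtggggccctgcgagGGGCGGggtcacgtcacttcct
SRSF1, chr17:58007347-58007496, minus strand: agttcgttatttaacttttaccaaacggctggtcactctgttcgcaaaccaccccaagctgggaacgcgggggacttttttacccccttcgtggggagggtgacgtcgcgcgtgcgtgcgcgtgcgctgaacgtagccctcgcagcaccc
RefSeq windows from 250 bases before to 50 bases after the transcript start were matched for 9 of the 10 genes, 11 windows in all. A GC box stood in the windows of 4 genes (SRSF4, SRSF6, SRSF11 and TRA2B), and 45.0% of all 35116 windows held one. The E-box CACGTG, the letters bound by MYC with MAX, was in 0 of the 11 windows and in 7.26% of all windows, which says only that these letters are not in this stretch.

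Total counts ranged from 143269192 to 303323552 per library, and the fewest counts of any of the 10 genes in a library was 3951 (SRSF8). The unit of level is CPM, a gene's count divided by the size of its library in units of a mega-count, and TMM scaling sets the sizes so that most genes keep the same level. Of the overexpressed genes, SRSF3, SRSF7 and MYC were each higher in the lines labelled for them, SRSF3 at 519 to 539 CPM in SRSF3-OE against 335 to 414 CPM in 1xCtrl. SRSF2 was not: it was at 376 to 413 CPM in the libraries labelled SRSF2-OE against 414 to 476 CPM in 1xCtrl, and at 373 to 397 CPM in the libraries labelled 3xSR against 391 to 424 CPM in 3xCTL. Every direction below for these 2 lines is therefore that of libraries so labelled. The labels do not give the part of the SRSF2 transcript that was introduced. Gene-level counts do not tell introduced RNA from the cell's own, so they do not show whether SRSF2 protein was raised. The lines also differed from their controls in targeted genes that their labels do not name. MYC was higher in libraries labelled 3xSR (156 to 159 CPM against 91 to 96.6 CPM in 3xCTL), in SRSF3-OE (157 to 162 CPM against 125 to 143 CPM in 1xCtrl) and in SRSF7-OE (157 to 165 CPM). SRSF3 and SRSF7 were both called higher in SRSF2-OE, where SRSF7 was at 403 to 447 CPM against 425 to 442 CPM in SRSF7-OE itself. SRSF2 was called lower in MYC-OE and SRSF7-OE. The line's epithelial and basal markers were present in every library, KRT5 at 1600 to 2650 CPM and EPCAM at 517 to 705 CPM. Of 8 markers of other cell types, CD3E was at 0 in 18 libraries and PTPRC did not exceed 0.539 CPM. The highest of the 8 were CD68, at 5.92 to 36.1 CPM, and COL1A1, at 5.46 to 15.7 CPM, both present in every library. The summed level of these 8 was 13.7 to 23.2 CPM in 3xCTL, 25.5 to 27.8 CPM in 3xSR and 42.1 to 46.5 CPM in MYC-OE, both lines lying above their control. It was 15.9 to 32.4 CPM in 1xCtrl, 38.4 to 42 CPM in SRSF3-OE, which lay above, and 30.2 to 32.3 CPM in SRSF2-OE and 31.5 to 34.1 CPM in SRSF7-OE, which overlapped. The part of these markers in the results was not tested. Since RNA was measured in bulk, fewer cells of a kind and less RNA per cell cannot be told apart.

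Within groups, a library was often the highest or lowest for most of the 10 genes. 1xCtrl replicate 2 was the lowest of its group for 8 of the 10 genes, and 3xCTL replicate 2 was the highest of its group for 9. Other libraries came close: SRSF7-OE replicate 1 was the lowest for 8, 1xCtrl replicate 3 the highest for 8 and SRSF2-OE replicate 1 the lowest for 7. 1xCtrl replicate 2 and 3xCTL replicate 2 also differed from the rest of their groups in how counts depended on GC content. The trend between transcripts of 60% and 40% GC was 0.55 on the log2 scale in 1xCtrl replicate 2 against -0.18 and -0.35 in the others, and -0.25 in 3xCTL replicate 2 against 0.22 and 0.21. It also differed between whole groups. The trend ran from -0.33 to -0.14 in 3xSR and from 0.14 to 0.28 in MYC-OE. It ran from -0.29 to -0.12 in SRSF3-OE and from 0.01 to 0.25 in SRSF7-OE. Between these lines, the line and its GC trend cannot be told apart by the design. The 10 genes have a transcript GC content of 40.3% to 47.1%, on the side where such a trend moves them together. With each library's GC trend removed, 3xSR gave 5 called genes in place of 4, while the share of all genes called went from 29% to 33.8%. SRSF7-OE gave 5 in place of 4, while that share went from 17.3% to 29.6%. MYC-OE, SRSF2-OE and SRSF3-OE gave the same number, with 44.1%, 34.4% and 38.6% of all genes called.

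Per kilobase of merged exons, SRSF1 had the highest level of the 10 in 6 of the 7 groups, at 88.7 ± 5.67 CPM per kilobase (SD, n = 3) in 3xCTL, and SRSF8, an intron-poor relative of SRSF2, had the lowest in every group, at 8.01 ± 0.294 CPM per kilobase in 3xCTL. In SRSF2-OE, SRSF6 reached 86.6 ± 5.24 CPM per kilobase and SRSF1 84.1 ± 2.61, which do not differ beyond their spread. SRSF4 was ninth in every group, at 11.8 to 15.3 CPM per kilobase. In 3xCTL the order between these ends was SRSF6, SRSF5, SRSF9, SRSF11, SRSF10, TRA2A and TRA2B. There SRSF6 at 45.8 ± 3.17, SRSF5 at 42.9 ± 1.58 and SRSF9 at 41.7 ± 2.23 CPM per kilobase were close, as were SRSF10 at 28.5 ± 2.54 and TRA2A at 27.8 ± 2.03. These SDs are between libraries that all the genes share, so they do not measure the order within a library, which was not tested. The order rests on the length used: divided by mean transcript length, SRSF10 moved from the sixth to the second place in 3xCTL and SRSF6 from the second to the eighth.

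**Figure D1:**
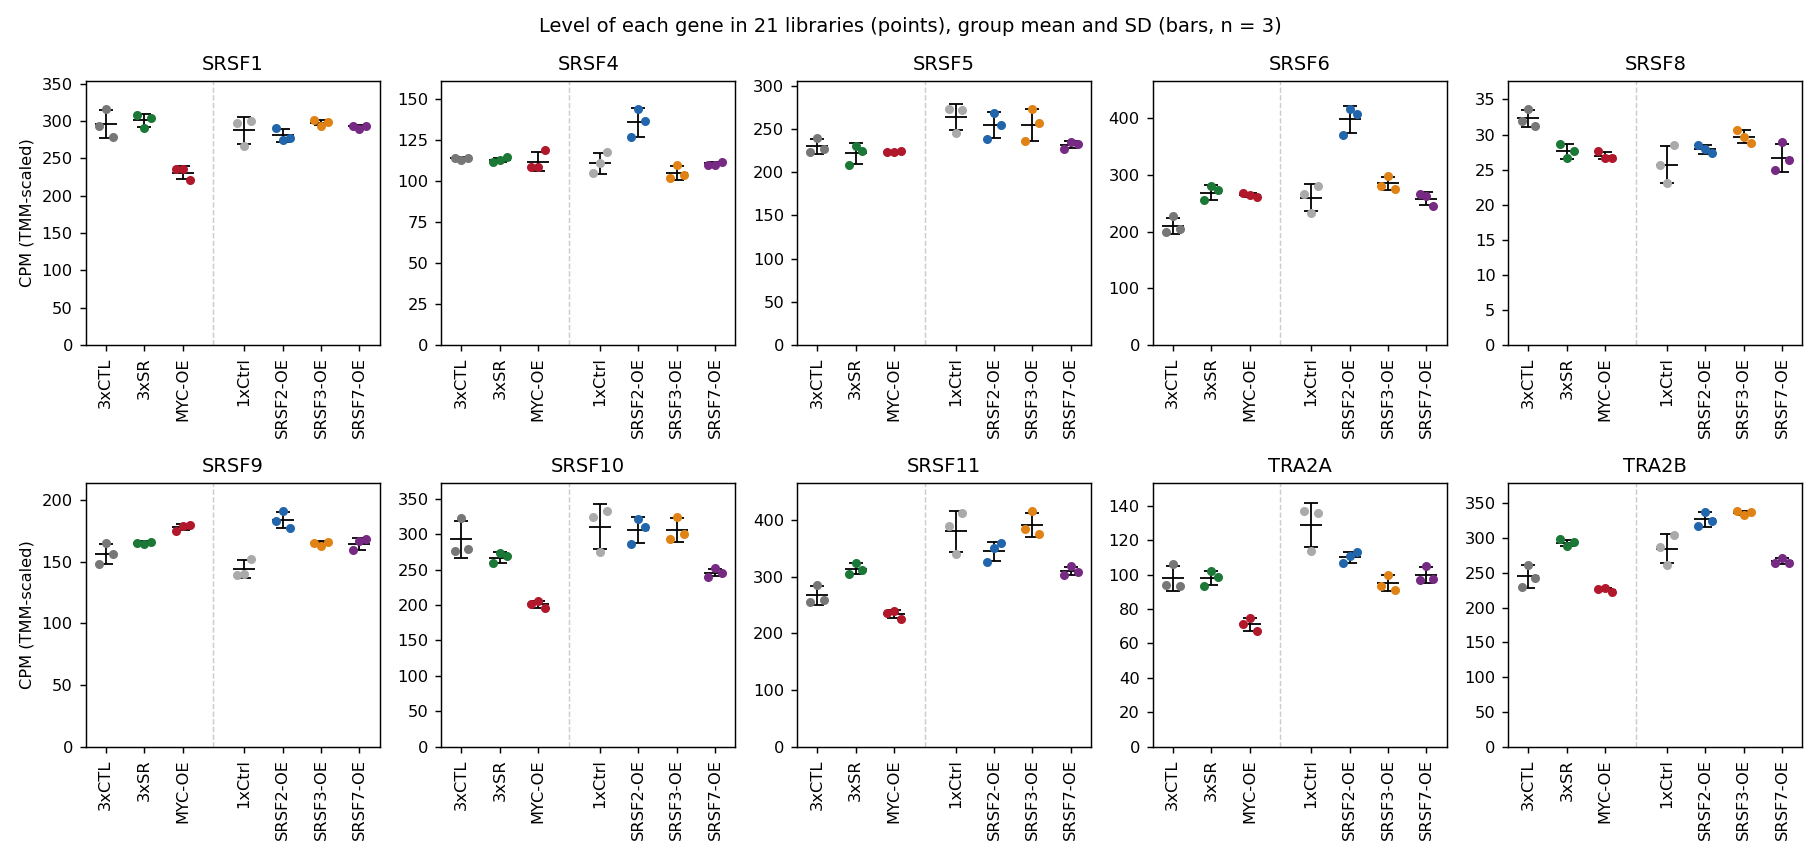
Level of each of the 10 genes in TMM-scaled CPM (vertical axis, from 0) in the 21 libraries (points), with the mean and SD of each group of 3 (bars); the dashed line parts the 2 tables. SRSF6 in SRSF2-OE lies at 370 to 416 CPM, above every other group, and TRA2A in MYC-OE at 67.1 to 74.8 CPM, below every other group.

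Each line was then compared with its own control, which asks how these 10 genes stood in lines labelled for overexpression of other SR genes or MYC. All 10 genes passed the filter on low counts in both tables, and a gene was called when its adjusted p in edgeR's quasi-likelihood test, with Benjamini-Hochberg adjustment over all genes tested, was under 0.05. Over the 5 comparisons there were 23 calls in 50 tests, 12 higher and 11 lower, beside 17.3% to 35.3% of all genes called in each comparison. At least 1 call fell on 9 of the 10 genes, and the share of all genes called at least once was not computed. All but 1 call were changes of less than 1.5-fold.

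In the libraries labelled 3xSR, SRSF6, TRA2B and SRSF11 were higher and SRSF8 was lower than in 3xCTL. These 4 calls among 10 genes stood beside 29% of all 23160 genes tested (15.3% higher, 13.7% lower), and 5 genes had groups that did not overlap, beside 40.2% of all genes. In MYC-OE, 7 of the 10 were called, beside 35.3% of all genes (18% higher, 17.3% lower): SRSF10, TRA2A, SRSF1, SRSF8 and SRSF11 were lower and SRSF6 and SRSF9 higher. Groups did not overlap for 8 of the 10 (48.3% of all genes). The median log2 fold change of the 10 was -0.15 in MYC-OE and 0.01 in 3xSR, and that of all genes was 0 in both.

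Against 1xCtrl, the libraries labelled SRSF2-OE had 5 calls, beside 23.5% of 24362 genes (11.6% higher, 11.9% lower): SRSF6, SRSF9, SRSF4 and TRA2B were higher and TRA2A was lower. Groups did not overlap for 5 genes (35.9% of all). SRSF3-OE had 3 calls, beside 29.2% (15% higher, 14.1% lower), with TRA2B and SRSF9 higher and TRA2A lower, and 4 genes without overlap (39.8% of all). SRSF7-OE had 4 calls, beside 17.3% (9.03% higher, 8.26% lower), with SRSF9 higher and TRA2A, SRSF10 and SRSF11 lower, and 5 genes without overlap (32.6% of all). Median log2 fold changes of the 10 genes were 0.05, 0.05 and -0.05 in the 3 lines, beside -0.01, -0.03 and 0 for all genes. In SRSF2-OE, SRSF3-OE and SRSF7-OE the calls are measured from the same 3 control libraries, as are those of 3xSR and MYC-OE from theirs.

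**Figure D2:**
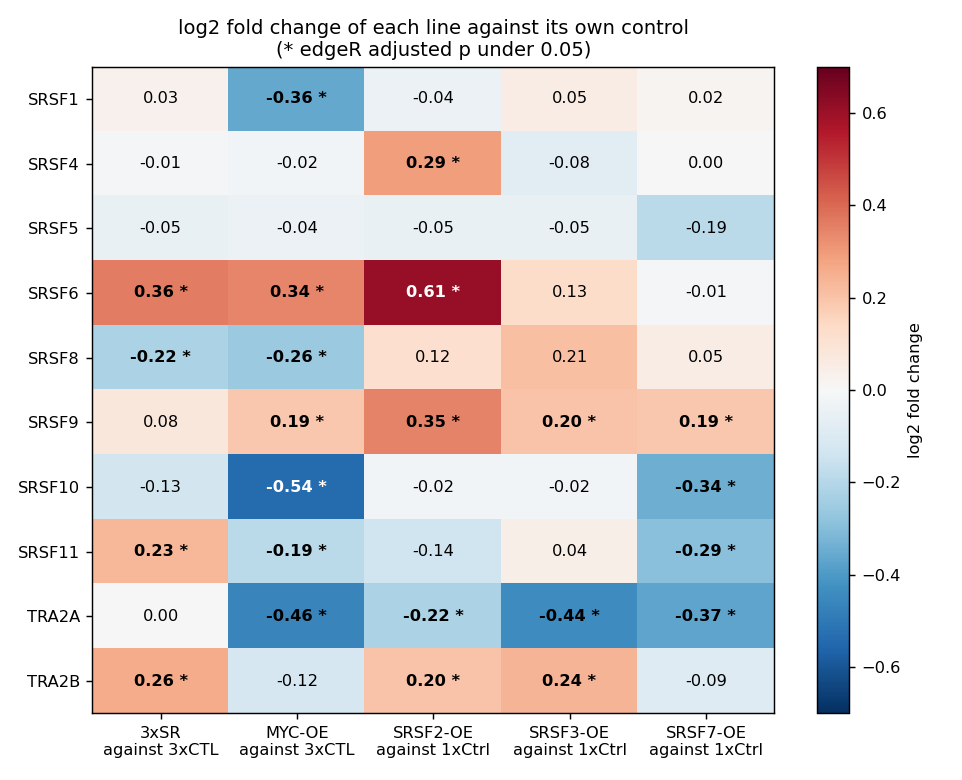
Log2 fold change of each gene (rows) in each line against its own control (columns), coloured from blue (lower) to red (higher), with an asterisk where edgeR's adjusted p was under 0.05. SRSF9 is called higher in 4 columns and TRA2A lower in 4, SRSF5 is called in none, and SRSF11 carries calls of both signs.

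SRSF4, SRSF5 and SRSF6 are close relatives with paired RNA recognition motifs and long RS domains. SRSF6 was called in 3 lines, SRSF4 in 1 of these and SRSF5 in none. In replicates 1, 2 and 3 in turn, SRSF6 was at 200, 227 and 204 CPM in 3xCTL, at 255, 281 and 273 CPM in the libraries labelled 3xSR and at 268, 265 and 262 CPM in MYC-OE. Among the single lines and their control, SRSF6 was at 266, 233 and 280 CPM in 1xCtrl, at 370, 416 and 407 CPM in SRSF2-OE, at 281, 298 and 276 CPM in SRSF3-OE and at 267, 263 and 245 CPM in SRSF7-OE. Every library of 3xSR, MYC-OE and SRSF2-OE lay above all of its controls, while SRSF3-OE and SRSF7-OE overlapped 1xCtrl. SRSF6 rose by 0.61 ± 0.0745 on the log2 scale (SE) in SRSF2-OE, which is 1.53-fold (adjusted p = 9.22e-05) and the only call past 1.5-fold. It rose by 0.36 ± 0.0581 in 3xSR (adjusted p = 0.000674) and by 0.34 ± 0.0581 in MYC-OE (adjusted p = 0.000779). The log2 difference was 0.13 in SRSF3-OE (95% interval -0.01 to 0.28, adjusted p = 0.209) and -0.01 in SRSF7-OE (-0.16 to 0.14, adjusted p = 0.952). The processed pseudogene SRSF6P2, whose reads could be confused with those of SRSF6, was at 0.546 to 1.63 CPM, and adding its counts changed no call.

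SRSF4 was at 105, 111 and 118 CPM in 1xCtrl and at 127, 144 and 137 CPM in SRSF2-OE. The 2 groups did not overlap, and SRSF4 rose by 0.29 ± 0.0626 (adjusted p = 0.00467). Fitted with only the groups compared, the adjusted p was 0.0575, and without 1xCtrl replicate 1 the rise was 0.19 (adjusted p = 0.0451). In the other 6 groups SRSF4 stayed between 102 and 119 CPM. It was not called in the other 4 lines, but without 1xCtrl replicate 1 the log2 difference in SRSF3-OE was -0.18 (adjusted p = 0.0419) and with total counts alone -0.19 (adjusted p = 0.0359), where the full fit gave -0.08. SRSF5 was at 224, 240 and 227 CPM in 3xCTL, 208, 231 and 225 CPM in 3xSR and 223, 223 and 225 CPM in MYC-OE. It was at 273, 246 and 272 CPM in 1xCtrl, 239, 269 and 255 CPM in SRSF2-OE, 236, 273 and 257 CPM in SRSF3-OE and 227, 235 and 233 CPM in SRSF7-OE. SRSF5 alone was called in no comparison. Its lowest log2 difference was -0.19 in SRSF7-OE (95% interval -0.32 to -0.05, adjusted p = 0.0828), where the groups did not overlap, and that difference passed the test in DESeq2 (adjusted p = 0.0485), with the GC trend removed (adjusted p = 0.0325) and without 1xCtrl replicate 2 (adjusted p = 0.0159).

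The ratio of SRSF6 to SRSF5 counts within a library does not depend on how libraries are scaled. It was 0.893 to 0.946 in 3xCTL, 1.21 to 1.22 in 3xSR and 1.17 to 1.2 in MYC-OE. The range was 0.946 to 1.03 in 1xCtrl, 1.54 to 1.59 in SRSF2-OE, 1.08 to 1.19 in SRSF3-OE and 1.05 to 1.18 in SRSF7-OE. Each of the 5 lines had all 3 libraries above all of its controls. The SRSF6 to SRSF4 ratio did so in 4 of the 5, SRSF7-OE being at 2.19 to 2.42 within the 1xCtrl range of 2.1 to 2.54. These ratios were chosen after their values were seen.

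SRSF1 and SRSF9 are another pair of relatives, and both are activators with paired recognition motifs. SRSF1, known as a proto-oncogene and as a transcriptional target of MYC, was at 294, 316 and 279 CPM in 3xCTL, at 309, 291 and 304 CPM in 3xSR and at 236, 236 and 221 CPM in MYC-OE. MYC-OE lay below all libraries of both other groups, and SRSF1 fell by 0.36 on the log2 scale (SE 0.0563, adjusted p = 0.000388). With the single lines it was between 267 CPM and 301 CPM in all 12 libraries, and none of the 3 single lines was called, with log2 differences of -0.04, 0.05 and 0.02. The 95% interval of the 3xSR difference ran from -0.08 to 0.14 (adjusted p = 0.78). SRSF1 shares 1890 of its 3340 exon bases with AC015813.2, a gene model on the same strand listed at 5.05 to 37.6 CPM, so that the authors' counting could split reads between them. Summing their counts changed no call of SRSF1.

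SRSF9 was at 148, 165 and 156 CPM in 3xCTL, at 165, 164 and 166 CPM in 3xSR and at 175, 179 and 180 CPM in MYC-OE. It was at 139, 140 and 152 CPM in 1xCtrl, at 183, 191 and 177 CPM in SRSF2-OE, at 165, 163 and 166 CPM in SRSF3-OE and at 159, 167 and 168 CPM in SRSF7-OE. All 3 single lines and MYC-OE lay above their controls without overlap, and 3xSR overlapped 3xCTL. SRSF9 rose by 0.35 ± 0.0545 in SRSF2-OE (adjusted p = 0.000512), by 0.20 ± 0.0545 in SRSF3-OE (adjusted p = 0.0156), by 0.19 ± 0.0545 in SRSF7-OE (adjusted p = 0.0272) and by 0.19 ± 0.0488 in MYC-OE (adjusted p = 0.0107). The SRSF3-OE and SRSF7-OE calls were lost without 1xCtrl replicate 1, the library with the lowest SRSF9 level, at log2 differences of 0.11 (adjusted p = 0.147) and 0.13 (adjusted p = 0.119). They were also lost without SRSF3-OE replicate 1 (adjusted p = 0.0902) or 3 (adjusted p = 0.111), and without SRSF7-OE replicate 2 (adjusted p = 0.0752) or 3 (adjusted p = 0.108). The SRSF3-OE difference was 0.13 with upper-quartile scaling (adjusted p = 0.138), 0.09 with total counts alone (adjusted p = 0.243), 0.15 unfiltered (adjusted p = 0.065) and 0.16 with only the groups compared (adjusted p = 0.099), and none of these was called. The SRSF7-OE call was also lost with upper-quartile scaling (0.16, adjusted p = 0.106) and with only the groups compared (adjusted p = 0.104). In 3xSR the log2 difference was 0.08 (adjusted p = 0.259), and without 3xCTL replicate 2 it was 0.12 (adjusted p = 0.0379). SRSF9 shares 1729 of its 3744 exon bases with GATC on the opposite strand, a gene listed at 53.3 to 76.2 CPM. Whether the counting used strand is not given in the sources used here, so reads of the 2 genes may be mixed. Summing their counts changed no call of SRSF9 against a control.

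SRSF8, SRSF10 and SRSF11 differ in role. SRSF8 arose as a retrocopy of SRSF2, SRSF10 is an SR protein that turns into a splicing repressor when it loses its phosphates, and SRSF11 is an SR-related protein. SRSF8 was at 32, 33.6 and 31.2 CPM in 3xCTL, at 28.7, 26.6 and 27.6 CPM in 3xSR and at 27.6, 26.7 and 26.7 CPM in MYC-OE. Neither line overlapped the control, and SRSF8 fell by 0.22 in 3xSR (SE 0.0529, adjusted p = 0.00759) and fell by 0.26 in MYC-OE (SE 0.0528, adjusted p = 0.0024). Among the second table's libraries it was between 23.1 and 30.7 CPM and was called in no line. There the difference was 0.21 in SRSF3-OE (95% interval 0.05 to 0.36, adjusted p = 0.0687), which passed the test without 1xCtrl replicate 3 (adjusted p = 0.0245).

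SRSF10 was at 277, 323 and 279 CPM in 3xCTL, at 259, 273 and 270 CPM in 3xSR and at 202, 206 and 196 CPM in MYC-OE. MYC-OE lay far below both other groups, and SRSF10 fell by 0.54 (SE 0.0615, adjusted p = 3.26e-05), the lowest fold change of the 10 genes in any line, 0.687-fold. In 3xSR the difference was -0.13 (SE 0.0613, adjusted p = 0.13), with no overlap of the groups, and with the GC trend removed it was -0.26 (adjusted p = 0.000119). SRSF10 was also at 325, 275 and 333 CPM in 1xCtrl and at 240, 252 and 246 CPM in SRSF7-OE, again without overlap. It fell by 0.34 in SRSF7-OE (SE 0.0766, adjusted p = 0.00938). SRSF2-OE and SRSF3-OE overlapped 1xCtrl, at a log2 difference of -0.02 each.

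SRSF11 alone was called in both directions. It was at 255, 286 and 259 CPM in 3xCTL, at 305, 324 and 312 CPM in 3xSR and at 235, 240 and 226 CPM in MYC-OE, 3 ranges that did not overlap. SRSF11 rose by 0.23 ± 0.0547 in 3xSR (adjusted p = 0.00703) and fell by 0.19 in MYC-OE (SE 0.0547, adjusted p = 0.0169). The rise was 0.11 with the GC trend removed (adjusted p = 0.046). The fall was not called without MYC-OE replicate 1 (adjusted p = 0.0531) or replicate 3 (adjusted p = 0.0736). It was at 389, 340 and 412 CPM in 1xCtrl, at 326, 350 and 359 CPM in SRSF2-OE, at 384, 416 and 375 CPM in SRSF3-OE and at 303, 318 and 309 CPM in SRSF7-OE. SRSF7-OE was below all 3 controls and fell by 0.29 (SE 0.0735, adjusted p = 0.015), which a fit of only the groups compared did not call (adjusted p = 0.0543). The SRSF2-OE difference of -0.14 (adjusted p = 0.195) was -0.22 without 1xCtrl replicate 2 (adjusted p = 0.00864), -0.21 without SRSF2-OE replicate 3 (adjusted p = 0.0391) and -0.20 with total counts alone (adjusted p = 0.0446).

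TRA2A and TRA2B are paralogs whose proteins bind the same kind of GA-rich enhancer, and TRA2B is known to promote the inclusion of a poison exon in TRA2A transcripts. TRA2A was at 94.1, 106 and 93.4 CPM in 3xCTL, at 93.6, 102 and 98.6 CPM in 3xSR and at 71.3, 74.8 and 67.1 CPM in MYC-OE. It was at 137, 114 and 136 CPM in 1xCtrl, at 107, 111 and 113 CPM in SRSF2-OE, at 93.3, 100 and 91.2 CPM in SRSF3-OE and at 96.7, 105 and 97.2 CPM in SRSF7-OE. MYC-OE and all 3 single lines lay below their controls without overlap, and 3xSR covered the same range as 3xCTL. TRA2A fell by 0.46 in MYC-OE (SE 0.0640, adjusted p = 0.000155), by 0.44 in SRSF3-OE (SE 0.0733, adjusted p = 0.000551), by 0.37 in SRSF7-OE (SE 0.0732, adjusted p = 0.00436) and by 0.22 in SRSF2-OE (SE 0.0732, adjusted p = 0.041). The SRSF2-OE fall was not called with upper-quartile scaling (adjusted p = 0.0673). In 3xSR the log2 difference was 0 (95% interval -0.12 to 0.13, adjusted p = 0.983).

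TRA2B was at 230, 262 and 242 CPM in 3xCTL, at 298, 288 and 294 CPM in 3xSR and at 227, 228 and 223 CPM in MYC-OE. It was at 287, 262 and 304 CPM in 1xCtrl, at 318, 338 and 324 CPM in SRSF2-OE, at 339, 333 and 337 CPM in SRSF3-OE and at 264, 272 and 264 CPM in SRSF7-OE. The 3xSR, SRSF2-OE and SRSF3-OE libraries lay above all of their controls, MYC-OE lay just below its own, and SRSF7-OE overlapped 1xCtrl. TRA2B rose by 0.26 ± 0.0526 in 3xSR (adjusted p = 0.00298), by 0.24 ± 0.0596 in SRSF3-OE (adjusted p = 0.00829) and by 0.20 ± 0.0596 in SRSF2-OE (adjusted p = 0.0284). With the GC trend removed the 3xSR rise was 0.16 (adjusted p = 0.00237) and the SRSF3-OE rise 0.15 (adjusted p = 0.00991). The SRSF3-OE rise was 0.13 with total counts alone (adjusted p = 0.0771), 0.17 with upper-quartile scaling (adjusted p = 0.0829) and 0.20 with only the groups compared (adjusted p = 0.0542). The SRSF2-OE rise was 0.14 with total counts alone (adjusted p = 0.0663), 0.19 with upper-quartile scaling (adjusted p = 0.0629) and 0.16 with only the groups compared (adjusted p = 0.0834). The SRSF2-OE rise was not called without 1xCtrl replicate 1 (adjusted p = 0.0711) or SRSF2-OE replicate 2 (adjusted p = 0.0826). Log2 differences of -0.12 in MYC-OE (adjusted p = 0.108) and -0.09 in SRSF7-OE (adjusted p = 0.319) passed the test without 3xCTL replicate 1 (-0.16, adjusted p = 0.0267) and without 1xCtrl replicate 2 (-0.14, adjusted p = 0.0471), and the first also with total counts alone (-0.15, adjusted p = 0.03).

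The TRA2B to TRA2A ratio of counts, which does not depend on how libraries are scaled, lay above that of its controls in every line. It was 2.45, 2.47 and 2.6 in 3xCTL, 3.18, 2.83 and 2.98 in 3xSR and 3.18, 3.05 and 3.32 in MYC-OE. It was 2.1, 2.29 and 2.25 in 1xCtrl, 2.98, 3.04 and 2.86 in SRSF2-OE, 3.63, 3.32 and 3.70 in SRSF3-OE and 2.73, 2.58 and 2.72 in SRSF7-OE. All 3 libraries of each line lay above all 3 of their controls, by 1.2-fold in 3xSR, 1.27-fold in MYC-OE, 1.34-fold in SRSF2-OE, 1.6-fold in SRSF3-OE and 1.21-fold in SRSF7-OE. TRA2B and TRA2A have transcripts of 41.8% and 41.7% GC. With 3 libraries against 3, a two-sided exact permutation test gives p = 0.1 at its smallest, and it gave p = 0.1 for each line (0.107 adjusted over 15 ratio tests). The ratio restates the levels of the 2 genes and was, like those of SRSF6, chosen after values were seen. The single lines share the 1xCtrl libraries, and 3xSR and MYC-OE share 3xCTL. How often the ratios of other gene pairs part lines from controls was not tested. In the main fit, TRA2B was called and TRA2A was not in 3xSR, TRA2A was called and TRA2B was not in MYC-OE and SRSF7-OE, and both were called in SRSF2-OE and SRSF3-OE. Both calls in SRSF2-OE and that of TRA2B in SRSF3-OE were lost under some settings. Whether the lines differ in which gene moved the ratio was not tested.

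**Figure D3:**
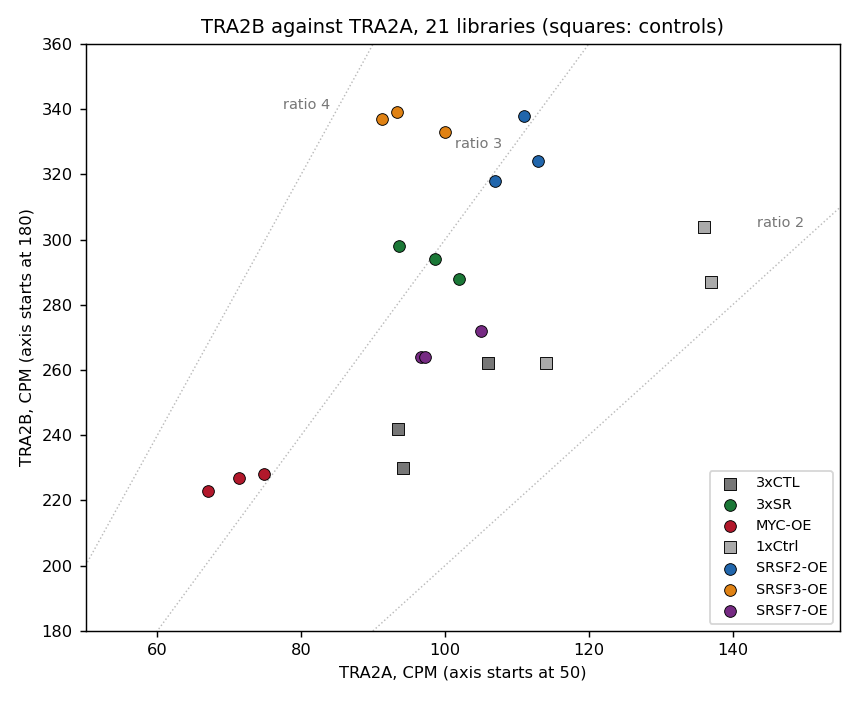
TRA2B (vertical axis) against TRA2A (horizontal axis) in CPM in the 21 libraries; squares are controls, circles are overexpressing lines, and dotted lines mark ratios of 2, 3 and 4, with axes that start at 180 and 50 CPM. The libraries of each line lie at a steeper ratio than their own controls, which are at 2.45 to 2.6 (3xCTL) and 2.1 to 2.29 (1xCtrl).

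MYC-OE and 3xSR, which share the 3xCTL controls, were next compared with each other. MYC itself was at 170 to 181 CPM in MYC-OE and 156 to 159 CPM in 3xSR, a log2 difference of 0.15 (adjusted p = 0.029). Both lay above 3xCTL, at 91 to 96.6 CPM, so the comparison does not set raised against unraised MYC RNA. TRA2A, SRSF11, SRSF10, SRSF1 and TRA2B were called, all lower in MYC-OE, which is 5 of 10 beside 34.9% of all genes (17.3% higher, 17.6% lower). The log2 differences were -0.46, -0.43, -0.41, -0.38 and -0.38, with adjusted p from 0.000131 to 0.000358. With the GC trend removed, which called 38.2% of all genes, those of SRSF11, SRSF10 and TRA2B were smaller, at -0.26, -0.23 and -0.22 (adjusted p from 0.000114 to 0.000344). SRSF9 was then called higher in MYC-OE (0.18, adjusted p = 0.000749), as it was with only the groups compared (0.11, adjusted p = 0.0303). SRSF6 and SRSF8, which moved the same way in both lines, differed between them by -0.02 (95% interval -0.14 to 0.09) and -0.03 (-0.14 to 0.07). The summed level of the 10 genes was 1773, 1788 and 1745 CPM in MYC-OE, 2033, 2093 and 2086 CPM in 3xSR and 1868, 2072 and 1884 CPM in 3xCTL. MYC-OE lay below every library of the other groups. These sums were taken without removing the GC trend, which was 0.14 to 0.28 in MYC-OE and -0.33 to -0.14 in 3xSR.

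Among the single lines, SRSF2-OE stood above SRSF3-OE and SRSF7-OE for several genes. Against SRSF2-OE, SRSF3-OE was lower for SRSF6 (-0.48, adjusted p = 0.000446), SRSF4 (-0.37, adjusted p = 0.00087), TRA2A (-0.22, adjusted p = 0.042) and SRSF9 (-0.16, adjusted p = 0.0463), 4 of 10 beside 26.8% of all genes (14.1% higher, 12.6% lower). SRSF7-OE was lower than SRSF2-OE for SRSF6 (-0.62, adjusted p = 7.93e-05), SRSF10 (-0.31, adjusted p = 0.00949), SRSF4 (-0.29, adjusted p = 0.00432), TRA2B (-0.29, adjusted p = 0.00323) and SRSF9 (-0.16, adjusted p = 0.0469), 5 of 10 beside 24.2% (12.8% higher, 11.5% lower). SRSF7-OE was lower than SRSF3-OE for SRSF11 (-0.34, adjusted p = 0.00301), TRA2B (-0.33, adjusted p = 0.000732) and SRSF10 (-0.31, adjusted p = 0.00592), 3 of 10 beside 35.2% (17.3% higher, 17.8% lower). With the GC trend removed, the differences of SRSF7-OE from SRSF3-OE were -0.19 for SRSF11, -0.21 for TRA2B and -0.21 for SRSF10 (adjusted p from 0.000643 to 0.00554), with 42.7% of all genes called. In these 3 comparisons the fit with TMM called no gene of the 10 higher, and it did not call SRSF1 or SRSF5 at all. Other settings did call genes higher. With the GC trend removed, TRA2A was higher in SRSF7-OE than in SRSF3-OE (0.19, adjusted p = 0.00229) and SRSF1 higher in SRSF7-OE than in SRSF2-OE (0.12, adjusted p = 0.0412), while SRSF11 was lower in SRSF7-OE than in SRSF2-OE (-0.14, adjusted p = 0.042). Total counts alone called SRSF4 (0.18, adjusted p = 0.0358) and TRA2A (0.18, adjusted p = 0.0479) higher in SRSF7-OE than in SRSF3-OE. The SRSF9 call between SRSF7-OE and SRSF2-OE was lost without each of the 6 libraries in turn (adjusted p from 0.051 to 0.17), and that between SRSF3-OE and SRSF2-OE without any of 5 of the 6 (0.0518 to 0.091), the exception being SRSF2-OE replicate 3. The first was also lost with total counts alone, unfiltered, with the GC trend removed and when summed with GATC (0.0851 to 0.159), and the second when summed with GATC (0.0932). The SRSF11 difference of SRSF3-OE from SRSF2-OE was 0.18 (adjusted p = 0.0848), which passed without SRSF2-OE replicate 3 (0.21, adjusted p = 0.0399) or SRSF3-OE replicate 3 (0.20, adjusted p = 0.0481) and with only the groups compared (0.16, adjusted p = 0.045). The SRSF5 difference of SRSF7-OE from SRSF3-OE was -0.14 (adjusted p = 0.137), which passed without SRSF3-OE replicate 1 (-0.17, adjusted p = 0.037).

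The effect of the joint line was then set against that of each single line, each taken from its own control, in a fit of all 21 libraries and 25013 genes. Of the 30 differences 11 passed the test. The 3xSR effect exceeded that of SRSF7-OE for SRSF11 by 0.53 ± 0.0865 (adjusted p = 0.000141), for TRA2A by 0.38 ± 0.0934, for SRSF6 by 0.37 ± 0.0908 and for TRA2B by 0.36 ± 0.0724, and was below it for SRSF8 (-0.27), 5 of 10 beside 24.6% of all genes (13.6% higher, 10.9% lower). It was above the SRSF2-OE effect for SRSF11 (0.38) and below it for SRSF8 (-0.33), SRSF4 (-0.29) and SRSF9 (-0.27), 4 of 10 beside 21.9% (13.3% higher, 8.53% lower). It was above the SRSF3-OE effect for TRA2A (0.46) and below it for SRSF8 (-0.42), 2 of 10 beside 17.8% (10.8% higher, 7.02% lower). SRSF8 passed in all 3 differences, and SRSF1, SRSF5 and SRSF10 in none. Removing the GC trend, with 29% to 31.8% of all genes called, moved several of these values. Against SRSF7-OE the difference became 0.25 for TRA2A, 0.21 for SRSF6 and 0.23 for TRA2B (adjusted p from 0.00149 to 0.0202), and SRSF9 passed at -0.20 (adjusted p = 0.00942). Against SRSF2-OE it became 0.23 for SRSF11 (adjusted p = 0.0101), and SRSF10 passed at -0.27 (adjusted p = 0.00275) where the full fit gave -0.10. Against SRSF3-OE, SRSF6 (0.21, adjusted p = 0.0241) and SRSF11 (0.18, adjusted p = 0.0418) passed. The SRSF8 difference from SRSF7-OE (adjusted p = 0.0317) was lost without 3xCTL replicate 1 (0.0535) or 2 (0.0659), 3xSR replicate 2 (0.0585), 1xCtrl replicate 2 (0.0579) or SRSF7-OE replicate 2 (0.0678), and with upper-quartile scaling (-0.23, adjusted p = 0.11) or only the groups compared (-0.29, adjusted p = 0.0872). With total counts alone, SRSF6 (0.31, adjusted p = 0.0137) and SRSF11 (0.28, adjusted p = 0.0221) passed against SRSF3-OE, and TRA2A against SRSF2-OE (0.26, adjusted p = 0.0369). 3xCTL replicate 2 and 1xCtrl replicate 2 were unlike the rest of their groups in GC trend. With either left out alone, SRSF6 and SRSF11 also passed against SRSF3-OE, TRA2A against SRSF2-OE and SRSF10 against SRSF7-OE. For SRSF6 the difference from the SRSF2-OE effect was -0.25 (adjusted p = 0.0586), and with the GC trend removed it was -0.38 (adjusted p = 0.000127). It also passed in DESeq2 (adjusted p = 0.0395), with RLE scaling (adjusted p = 0.0444), with at least 10 counts in every library (adjusted p = 0.0413) and without any of 5 libraries, at -0.28 to -0.32. SRSF2 counts in the libraries labelled SRSF2-OE and 3xSR were no higher than in their controls, so these are differences between libraries as labelled. For TRA2A and SRSF8 the 2 controls lay further apart than the lines. Mean TRA2A was 97.8 CPM in 3xCTL and 129 CPM in 1xCtrl, beside 98 CPM in 3xSR and 94.9 to 110 CPM in the single lines. Mean SRSF8 was 32.3 CPM in 3xCTL and 25.7 CPM in 1xCtrl, beside 27.6 CPM in 3xSR and 26.7 to 29.7 CPM in the single lines. The 2 tables were scaled apart, and whether lines or controls set these differences was not tested.

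**Figure D4:**
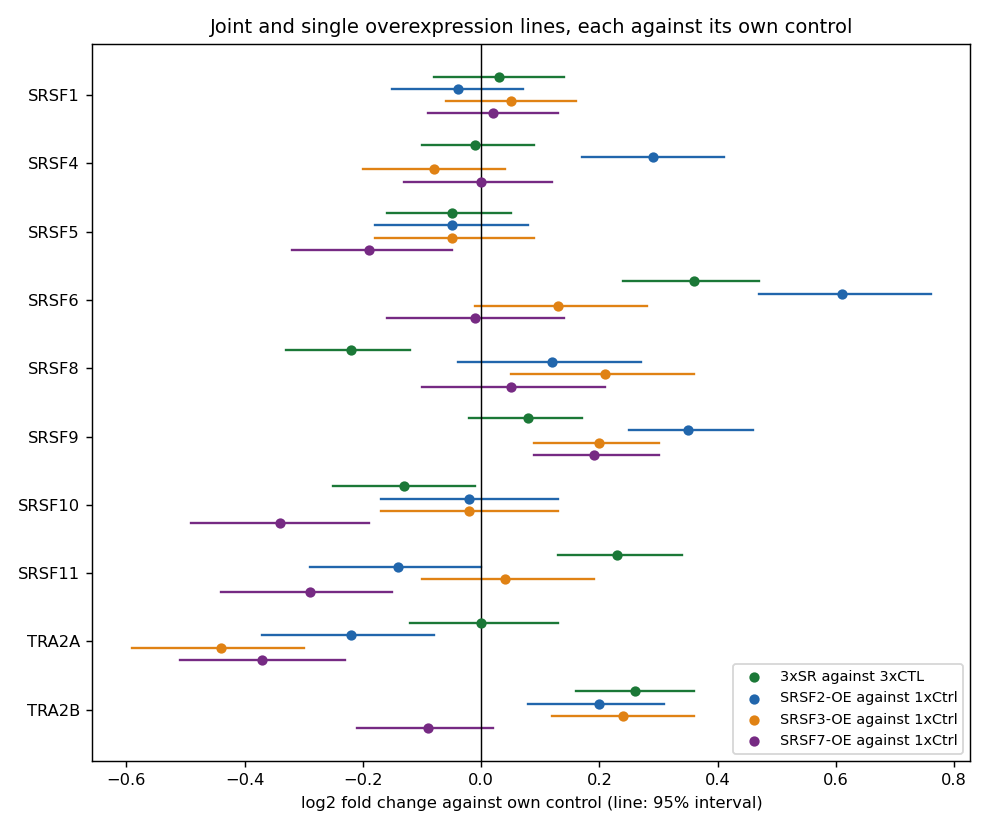
Log2 fold change against the own control (horizontal axis) of each gene in the joint line 3xSR and the 3 single lines; points are estimates, lines are 95% intervals. TRA2A in 3xSR sits at 0 while the 3 single lines sit between -0.44 and -0.22, and SRSF8 in 3xSR sits at -0.22 while the single lines sit between 0.05 and 0.21. The 2 controls themselves differed for these genes, TRA2A being at a mean of 97.8 CPM in 3xCTL and 129 CPM in 1xCtrl. Mean SRSF8 was 32.3 CPM in 3xCTL and 25.7 CPM in 1xCtrl.

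SRSF12, the SR protein gene left over once the 10 genes and the overexpressed ones are taken, was at 0 counts in all 3 libraries of 3xCTL and at 0.0787 ± 0.00738 CPM (SD, n = 3) in MYC-OE, too low for a fold change. Of 21 RS-domain coactivators and SR-related proteins, 5 were called higher and 0 lower in 3xSR, beside 29% of all genes, led by RBM39, a U2AF-related splicing coactivator (0.76, adjusted p = 3.65e-07). In MYC-OE, beside 35.3% of all genes, 2 were higher, with RBM39 again first (0.68, adjusted p = 5.8e-07), and 7 lower, with SREK1, an RS-rich regulator, lowest (-0.46, adjusted p = 2.15e-05). In SRSF2-OE, beside 23.5%, 4 were higher (RBM39 0.46, adjusted p = 0.000335) and 1 lower, the spliceosome scaffold SRRM2 (-0.32, adjusted p = 0.0109). SRSF3-OE, beside 29.2%, had 6 higher, led by RSRC1 (0.55, adjusted p = 0.000315), and 1 lower, the U1-associated LUC7L (-0.42, adjusted p = 0.000478). SRSF7-OE, beside 17.3%, had 1 higher, RSRC1 (0.37, adjusted p = 0.00887), and 8 lower, with the nuclear speckle protein SON lowest (-0.38, adjusted p = 0.00355). The medians of the list were 0, -0.04, 0.08, 0.06 and -0.19 in these 5 lines, beside 0, 0, -0.01, -0.03 and 0 for all genes.

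SR proteins are phosphorylated by SRPK and CLK kinases and carried into the nucleus by TNPO3. A list of 9 genes held 6 of these kinases, the related DYRK1A and PRPF4B, and TNPO3. The number called is again set beside the share of all genes called. In 3xSR 2 of the 9 were higher and 1 lower (29% of all genes), CLK4 at 0.31 (adjusted p = 0.00269) and CLK3 at -0.45 (adjusted p = 0.000226) being the extremes. In MYC-OE (35.3%) 3 were higher, with CLK1 at 0.29 (adjusted p = 0.00216), and 3 lower, with the kinase PRPF4B at -0.32 (adjusted p = 0.00081). PRPF4B was the only call in SRSF2-OE, beside 23.5% of all genes (-0.26, adjusted p = 0.0191), and the lowest of 2 falls in SRSF7-OE, beside 17.3% (-0.33, adjusted p = 0.00686). In SRSF3-OE (29.2%) 2 were higher, with TNPO3 at 0.25 (adjusted p = 0.0084), and 2 lower, with CLK2 at -0.39 (adjusted p = 0.00118). The medians were 0.08, 0, 0.02, 0.10 and -0.15 in 3xSR, MYC-OE, SRSF2-OE, SRSF3-OE and SRSF7-OE, beside the same medians of all genes.

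For 9 of the 10 genes the gene of most similar pattern is given, sought by Pearson's r over the 21 libraries, on log2 CPM relative to the mean of each table's controls, among 11273 genes. The closest were FAM13B for SRSF10 (r = 0.962), MCL1 for TRA2B (0.961), DNAJC9 for SRSF8 (0.961), GPATCH2L for SRSF11 (0.96), UBE2E3 for SRSF9 (0.953), AMMECR1 for SRSF1 (0.95) and BTBD3 for TRA2A (0.947). Lower were FAM222B for SRSF4 (0.886) and CEP95 for SRSF5 (0.861). None of these 9 had another of the 10 as its closest gene. The points share libraries, depth, GC trends and controls, and r is given as a description.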

How the data were processed

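RNA-seq was made from total RNA of HCC1806 cells as polyA-selected stranded libraries with paired-end reads, per the labels' protocols. The submitters' processing notes name Trimmomatic 0.39, STAR, StringTie 2.1.3b and GRCh38.p13, without role or order. The counting step, its strand setting and the annotation are not given in the sources used here. The values are whole-number counts per gene, deposited by the authors as 2 tables of 60668 Ensembl identifiers with differing column sums and no scaling. Symbols matched 42044 identifiers, and GENCODE release 29 held 58561 of them, whatever the version.

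The rule that gave the 10 genes uses no measured value, but the rule, the lists and the alternatives were set with earlier results of these data known. The test was edgeR 4.0.16 in R 4.3.3 (filterByExpr with a minimum count of 10 and a minimum total of 15, TMM, robust quasi-likelihood F test), separately for each table over all of its groups, with Benjamini-Hochberg adjustment over all genes. Differences between effects used 1 fit of both tables. An error of a log2 fold change is the standard error and an interval is 1.96 of it each way. Such an interval takes no account of the small number of libraries and is narrower than the F test implies. For SRSF10 in 3xSR it ran from -0.25 to -0.01, while the quasi-likelihood F test gave an unadjusted p = 0.0526. The procedure was tested on simulated counts. Alternatives were RLE, upper-quartile and no scaling, other filters, DESeq2 1.42.0, limma-voom 3.58.1, a replicate block, removal of each library's GC trend over 50 bins of transcript GC content, sums with processed pseudogenes, only the groups compared and leaving out each library. Sums with genes that share exons were added after seeing the data. From the lists of RS-domain proteins and of kinases, the highest and lowest called gene of each comparison is named. Other SR proteins were listed as SRSF2, SRSF3, SRSF7 and SRSF12. Reads carried no molecular identifiers, so counts are not independent molecules. The gene of most similar pattern to SRSF6 is not reported here.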

Additional observations from a re-analysis of the deposited data

Results flagged for a closer look

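In 11 cases the effect of the joint line 3xSR on a gene differed from that of a single line by edgeR's test of the difference itself, adjusted over 25013 genes, of which 17.8% to 24.6% passed. Against the libraries labelled SRSF2-OE, the 3xSR effect on the log2 scale was lower for SRSF4 by -0.29 (adjusted p = 0.00724), for SRSF8 by -0.33 (adjusted p = 0.0113) and for SRSF9 by -0.27 (adjusted p = 0.0055), and higher for SRSF11 by 0.38 (adjusted p = 0.0029). Against SRSF3-OE it was lower for SRSF8 by -0.42 (adjusted p = 0.00287) and higher for TRA2A by 0.46 (adjusted p = 0.00176). Against SRSF7-OE it was higher for SRSF6 by 0.37 (adjusted p = 0.00507), for SRSF11 by 0.53 (adjusted p = 0.000141), for TRA2A by 0.38 (adjusted p = 0.0056) and for TRA2B by 0.36 (adjusted p = 0.00115), and lower for SRSF8 by -0.27 (adjusted p = 0.0317). With the GC trend removed, SRSF11 against SRSF2-OE was 0.23, and against SRSF7-OE SRSF6 was 0.21, TRA2A 0.25 and TRA2B 0.23, all 4 still called. The labels do not say whether the libraries of the 2 tables were made together, and SRSF2 counts were not raised in 3xSR or SRSF2-OE. For TRA2A and SRSF8 the 2 controls lay further apart than the lines. Mean TRA2A was 97.8 CPM in 3xCTL and 129 CPM in 1xCtrl, and mean SRSF8 was 32.3 CPM and 25.7 CPM.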

How the results depend on the processing

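Of the 23 calls against a control, 15 held under every alternative and left-out library and 8 were lost under at least 1, while 8 of the 27 uncalled results passed under at least 1. No call changed sign. Each of the 10 genes had at least 3951 counts in every library.

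Numbers of the 10 genes called moved by more than 1.5 times as follows, and the cause was not tested. SRSF2-OE against 1xCtrl went from 5 to 3 with upper-quartile scaling, with the replicate block and with only the groups compared, while the share of all genes called went from 23.5% to 22.1%, 20.3% and 18.9%. SRSF3-OE against 1xCtrl went from 3 to 1 with upper-quartile scaling and with only the groups compared (all genes, from 29.2% to 27.1% and 21.5%). SRSF7-OE against 1xCtrl went from 4 to 2 with only the groups compared (17.3% to 9.76%), SRSF3-OE against SRSF2-OE from 4 to 2 with the replicate block (26.8% to 23.4%), and SRSF7-OE against SRSF3-OE from 3 to 5 with total counts alone (35.2% to 35.7%). The difference of 3xSR and SRSF3-OE effects went from 2 to 4 with total counts alone, with the GC trend removed and with the replicate block and the GC trend removed (17.8% to 18.6%, 29% and 28.9%). With a library left out, the counts ranged from 4 to 5 in 3xSR, 6 to 8 in MYC-OE, 4 to 6 in SRSF2-OE, 2 to 4 in SRSF3-OE and 3 to 6 in SRSF7-OE, and from 2 to 4 for the difference of 3xSR and SRSF3-OE effects. The shares of all genes called in these fits are not given here, so these ranges cannot be set beside them.

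Same-numbered libraries did not deviate together throughout any comparison. The mean correlation of their deviations was between -0.305 and 0.0867 over 9 comparisons, and in none were all 3 pairs over 0.1. The highest single pair, in MYC-OE against 3xSR, was at 0.323. The main fit therefore did not use the replicate numbers as pairs. These correlations cannot show whether same-numbered libraries were grown or prepared together. With the block, the calls of TRA2A (adjusted p = 0.0781) and TRA2B (0.0559) in SRSF2-OE and of SRSF9 in SRSF7-OE (0.0543) were lost. So were those of SRSF9 (0.0792) and TRA2A (0.0782) between SRSF3-OE and SRSF2-OE and of SRSF9 between SRSF7-OE and SRSF2-OE (0.0803). The counts with the block in 3xSR, MYC-OE, SRSF3-OE and SRSF7-OE were 4, 7, 3 and 3, beside 26.5%, 33.5%, 26% and 13.8% of all genes.

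The signs that turned were all of uncalled differences near 0. For SRSF1 in 3xSR the value was -0.04 with the GC trend removed, with and without the block, and -0.02 to 0.07 with a library left out. For TRA2A in 3xSR it was -0.02 with total counts alone, -0.01 unfiltered, -0.10 with the GC trend removed, with and without the block, and -0.04 to 0.06 with a library left out. For SRSF10 in SRSF2-OE it was 0.02 with the GC trend removed, with and without the block. For SRSF1 in SRSF3-OE it was -0.02 with upper-quartile scaling, -0.06 with total counts alone and -0.01 to 0.03 with a library left out. For SRSF11 in SRSF3-OE it was -0.02 with upper-quartile scaling, -0.07 with total counts alone, 0 unfiltered, -0.06 with the GC trend removed, with and without the block, and -0.05 to 0.06 with a library left out. For SRSF1 in SRSF7-OE it was -0.02 with upper-quartile scaling, -0.03 when summed with the gene sharing its exons and -0.02 to 0.02 with a library left out. For SRSF6 in SRSF7-OE it was 0.02 with the GC trend removed, with and without the block, and -0.07 to 0.02 with a library left out. Leaving out a library also gave -0.02 to 0 for SRSF4 in 3xSR, -0.06 to 0 in MYC-OE and -0.08 to 0.01 in SRSF7-OE, and -0.01 to 0.10 for SRSF8 in SRSF7-OE.

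Total counts alone moved the median of all genes in SRSF3-OE from -0.03 to -0.14, and the share of called genes that were higher from 51.6% to 32.1% (38.6% with upper-quartile scaling). That share went from 49.2% to 36.7% with total counts alone in SRSF2-OE. With the GC trend removed, the calls over all genes in SRSF7-OE went from 4214 to 7210.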
